A study of Mus musculus with 9 samples.

Results

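Pmel, Dct, Tyrp1 and Tyr are genes of pigment cells, the melanocytes and pigmented epithelia that make melanin. They were represented by 7 of the 12422 probe sets of the mouse array that are not controls, namely every probe set that the platform annotation gives to 1 of the 4 genes alone, among 8251 genes with a probe set of their own. Tyrp1 had 4 probe sets and each of the other genes had 1 (Pmel 102930_at, Dct 103597_at, Tyr 102666_at). Of the 7 probe sets, 3 reached the median of their array on at least 2 of the 9 arrays and were tested. These were the probe sets of Pmel and Dct, which did so on all 9 arrays, and 1 of Tyrp1, which did so on 3 arrays, both P10 corneas and lens replicate 1. The Tyrp1 probe set thus passed mainly through the group where it is high. The Tyr probe set and the other 3 of Tyrp1 did so on 0 or 1 array and are given by their values.

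The study measured mouse cornea at 7 weeks of age (adult, 3 arrays), cornea at postnatal day 10 (P10, 2 arrays), lens at 7 weeks (2 arrays) and flexor digitorum longus tendon at 7 weeks (2 arrays). The labels name no strain, genotype, coat colour or treatment. Corneas were cut free of the limbus, the pigmented rim where cornea meets sclera and conjunctiva, and their epithelium was scraped off, which left some of it behind. Lens and tendon RNA was pooled, and each array holds an independent RNA preparation, so that p-values measure the spread between preparations.

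Melanin is made inside melanosomes. Tyrosinase, encoded by Tyr, oxidises tyrosine and starts the pathway. Dopachrome tautomerase, encoded by Dct, and tyrosinase-related protein 1, encoded by Tyrp1, act on later steps of black and brown pigment synthesis and belong to the same family as tyrosinase. Pmel encodes the protein that forms the fibrils on which melanin is laid down. In the eye these genes are active in melanocytes of the uvea and limbus and in the pigmented epithelia of iris, ciliary body and retina, while the clear central cornea and the lens hold no pigment.

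The factor MITF drives this gene set in melanocytes through the M-box, a sequence built around CATGTG. RefSeq promoters of build GRCm38.p6 were given for 3 of the 4 genes, and the 250 bases before the transcript start were searched on both strands. All 3 hold the 10 bases GTCATGTGCT on the gene's strand, shown here in capitals with 10 bases on each side because the 3 genes share this run while the flanks differ.
Dct, chr14:118052379-118052408, minus strand: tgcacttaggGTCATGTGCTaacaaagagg
Tyrp1, chr4:80834155-80834184, plus strand: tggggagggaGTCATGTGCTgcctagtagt
Tyr, chr7:87493516-87493545, minus strand: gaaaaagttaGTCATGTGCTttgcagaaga
The run ends 143, 39 and 14 bases before the start used for Dct, Tyrp1 and Tyr. The Tyrp1 window lies after position 80834123, where the annotated gene begins, and before the transcript start that the promoter table uses. The 10 bases are the longest run that these promoters share and were picked for that reason. They occur in 0.155% of the 32851 promoters of the table, and the 6 bases CATGTG contained in them occur in 12.3%. In Tyrp1 and Tyr the run is preceded by A, giving the 11 bases AGTCATGTGCT, which occur in 7 promoters of the table. The match is a description of sequence, and binding was not measured.

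Krt12, Cryaa, Crybb2 and Fmod each read highest on the tissue they mark. Kera, a cornea marker, read 144 to 311 on adult corneas and 441 and 345 on P10 corneas. On lens it read 15.8 and 7.69, and on tendon 213 and 236, within the adult cornea range. Krt12, the cornea keratin, read 6614 to 8290 on adult corneas and 6440 to 7313 on P10 corneas, against 1603 to 1758 on lens and 257 to 401 on tendon. Crybb2, a lens crystallin, read 6628 and 7122 on lens and -52.4 and -36.9 on tendon. On corneas it was not absent, at 846 to 1441 on adult and 382 and 559 on P10 corneas. Cryaa read 6405 and 7231 on lens and 1280 to 3082 on the corneas. Fmod, a tendon proteoglycan, read 5455 and 6342 on tendon, 106 to 177 on adult corneas, 588 and 397 on P10 corneas and 215 and 45.2 on lens. All values are the deposited expression index in arbitrary units. Median indices lay between 67.6 and 88.0. Adult cornea replicate 1 stood apart in RNA quality, with a 3'/5' ratio of 2.25 for the Gapdh control against 0.831 to 1.04 on the other arrays. Log2 values of tested probe sets correlated at r = 0.966 between the P10 corneas and at r = 0.869 to 0.927 between adult corneas.

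Pmel read 128, 130 and 183 on the adult corneas. It read 430 on P10 cornea replicate 1 and 1647 on replicate 2. On lens it read 176 on both arrays, and on tendon 111 and 119. Both P10 values thus lay above every other array, but they differed from each other 3.84-fold. The adult mean was 147 ± 31.0 (SD, n = 3) and the P10 mean 1039 ± 861 (SD, n = 2). Lens, adult cornea and tendon followed the P10 cornea in this order, and the lens values lay inside the range of the adult corneas.

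Dct had another order. It read 348, 369 and 422 on adult corneas. On P10 corneas it read 669 and 1367. It read 242 and 191 on lens, and 489 and 474 on tendon. The P10 corneas were again highest, then tendon, then adult cornea, then lens. No neighbouring groups overlapped, although the difference between tendon and adult cornea was not called. Gaps like these are common with so few arrays. Of all tested probe sets, 45.9% lay higher in P10 cornea than in tendon without overlap. Likewise 29.9% lay lower in adult cornea than in tendon and 33.4% higher in adult cornea than in lens. The tendon reading was not shared by the other probe sets, which were lowest or level with the lowest group there except for 1 probe set of Tyrp1. Whether the Dct probe set binds other transcripts was not tested.

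The tested Tyrp1 probe set, 97954_at, read 7.70, 26.7 and 25.1 on adult corneas and 117 and 432 on P10 corneas. It read 83.1 and 15.6 on lens and 3.70 and 4.66 on tendon. The P10 corneas were highest, and the lens arrays lay far apart, with replicate 2 inside the range of the adult corneas and replicate 1 above it. The annotation ties this probe set and 2 others of Tyrp1 to the same source sequence, so they are not independent readings.

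Of these 2, 97955_at read 2.40 to 4.59 on adult corneas and 28.4 and 121 on P10 corneas, against 33.4 and 30.7 on lens and -0.30 and 5.30 on tendon. Lens thus read above all adult corneas and level with P10 replicate 1. The other, 97956_g_at, read 21.2 to 42.8 on adult corneas and 40.1 and 111 on P10 corneas, against 47.5 and 60.8 on lens and 24.1 and 19.6 on tendon. Its P10 replicate 1 lay within the adult range. The last Tyrp1 probe set, 161538_r_at, disagreed with the others. It stayed between -1.64 and 2.43 on every array of eye tissue and read 13.0 and 8.67 on tendon.

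Tyr, at 18.9, 17.5 and 23.3 on adult corneas, read 30.4 and 63.1 on P10 corneas. It read 5.10 and 11.3 on lens and 9.47 and 6.57 on tendon. No value reached the median of its array. The order was still P10 cornea, adult cornea and then lens and tendon, which overlapped. Fewer pigment cells and less RNA per cell cannot be told apart in these tissue extracts, here or in any comparison that follows.

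**Figure D1:**
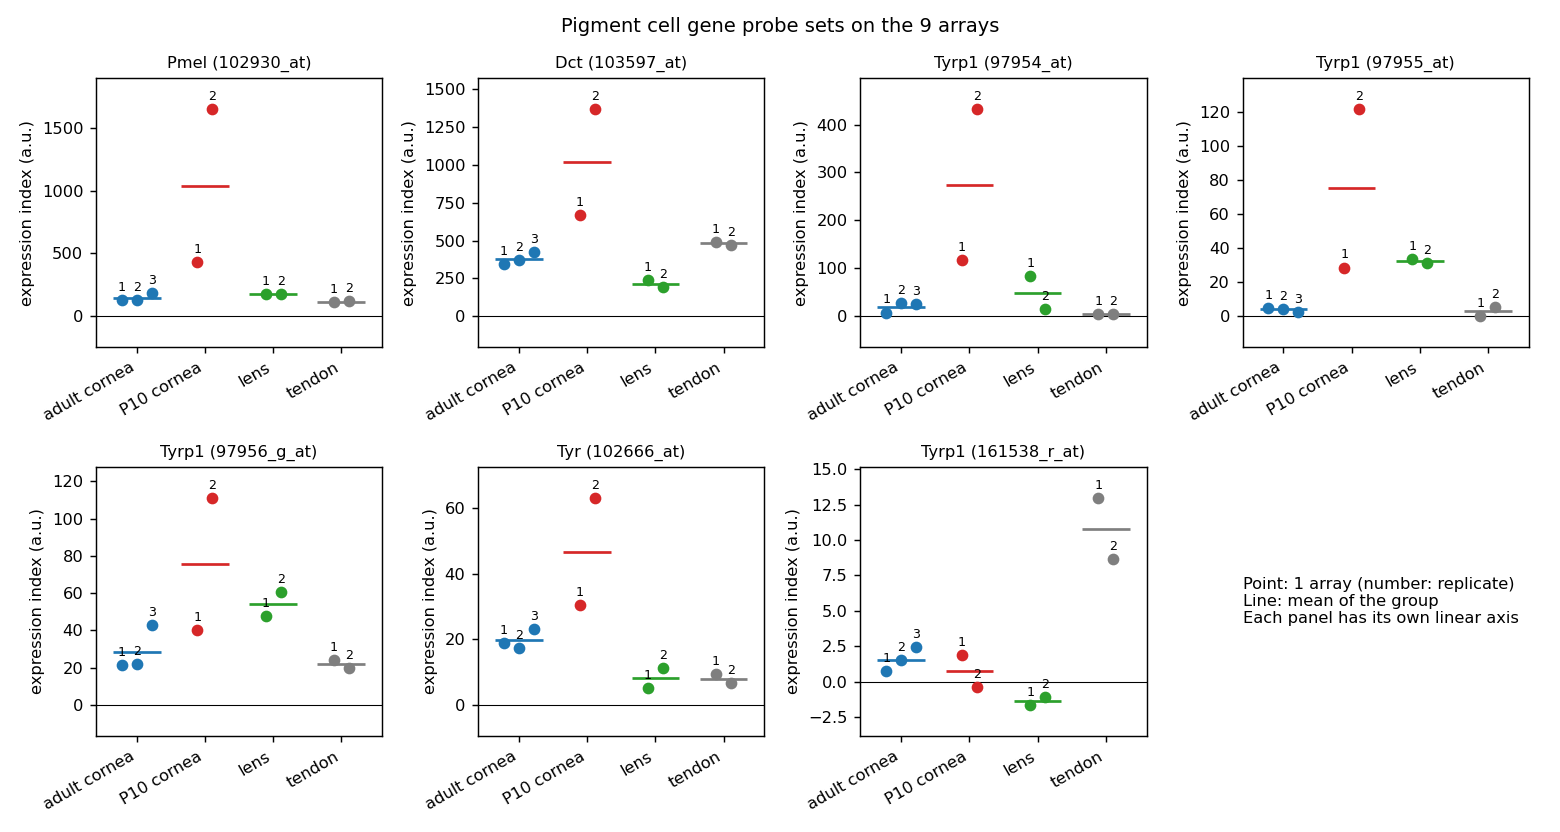
Expression index in arbitrary units (vertical, linear, a separate axis per probe set) of the 7 probe sets on adult cornea, P10 cornea, lens and tendon. Points are arrays with their replicate number and lines are group means. In 6 of the 7 panels P10 cornea replicate 2 is the highest point, and Pmel reaches 1647 there.

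The comparison of adult with P10 cornea asked how the cornea changes as it matures. All 3 tested pigment probe sets were lower in the adult, and the groups did not overlap for any of them. Pmel fell by 2.41 on the log2(value + 16) scale (± 0.44 SE, 95% interval -3.39 to -1.44), a 5.33-fold decrease (limma adjusted p = 0.0128). Dct fell by 1.30 (± 0.28 SE, limma adjusted p = 0.0270) and Tyrp1 fell by 2.82 (± 0.56 SE, limma adjusted p = 0.0200). The Tyrp1 probe set had passed the filter mainly through the P10 corneas, so its call is not separate support. With the array median needed on at least 5 of 9 arrays it was not tested, and 2 member probe sets were called. Of all 8154 tested probe sets 3.88% were called lower in the adult and 4.57% in either direction, and 25.1%, called or not, lay lower in the adult without overlap. Without the filter on low values, the Tyrp1 probe set 97955_at fell by 1.99 (limma adjusted p = 0.0176). Tyr differed by -0.76 there and did not pass (limma adjusted p = 0.156), nor did 97956_g_at (limma adjusted p = 0.193) or 161538_r_at (limma adjusted p = 0.964).

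How far the 3 calls rest on P10 replicate 2 was measured by leaving it out, with the remaining P10 array assumed to vary like the other groups. Pmel then fell by 1.46 and kept its call (limma adjusted p = 0.0492). Without P10 replicate 1 instead, Pmel fell by 3.36 and Tyrp1 fell by 3.69 (limma adjusted p = 0.00111 and 0.0185). Without replicate 2 Dct differed by -0.80 and Tyrp1 by -1.94, both without a call (limma adjusted p = 0.276 and 0.213). Without adult cornea replicate 1, Pmel kept its call (limma adjusted p = 0.0478) and Dct and Tyrp1 lost theirs (limma adjusted p = 0.0868 and 0.0714). Dct also lost its call without adult cornea replicate 2 or either tendon array (limma adjusted p = 0.0559 to 0.0587). In a fit of only the adult and P10 corneas none of the 3 passed (limma adjusted p = 0.0810 for Pmel, 0.101 for Dct and 0.0513 for Tyrp1). The size for Tyrp1, dim on adult corneas, also moved with the pseudocount, to -3.62 with 1 and -1.85 with 64.

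Against lens and tendon the P10 cornea was higher for all 3 tested probe sets. Here too the Tyrp1 probe set had passed the filter mainly through the P10 corneas. The cornea arrays had served an earlier study of cultured corneal cells, so a difference between array runs and one between tissues cannot be told apart here. Against lens, Pmel rose 4.49-fold (limma adjusted p = 0.00401), Dct 4.22-fold (limma adjusted p = 0.000328) and Tyrp1 4.36-fold (limma adjusted p = 0.0155), in a comparison where 31.6% of tested probe sets were called higher and 49.6% lay higher without overlap. The Tyrp1 call was lost without P10 replicate 2 (limma adjusted p = 0.138), without lens replicate 2 (0.150) and in a fit of only these groups (0.0532). Against tendon, Pmel rose 6.57-fold (limma adjusted p = 0.00228) and Dct 1.96-fold (limma adjusted p = 0.0388), and Tyrp1 rose too (limma adjusted p = 0.00182), where 15.7% were called higher and 45.9% lay higher without overlap. The Dct call against tendon was lost without P10 replicate 2 (limma adjusted p = 0.315), adult cornea replicate 1 (0.0539) or either tendon array (0.169 for both). Tyrp1 read near 0 on tendon, so the size of its difference is set by the pseudocount, with log2 values of 3.60 as reported, 5.46 with a pseudocount of 1 and 2.14 with 64. These comparisons share the P10 arrays with the comparison of the ages.

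Both P10 preparations moved these sizes. Without P10 replicate 2 the log2 difference of Pmel was 1.22 over lens and 1.77 over tendon, and without replicate 1 it was 3.12 and 3.67, all called (limma adjusted p at most 0.0111). Tyrp1 over tendon was 2.72 without P10 replicate 2 and 4.47 without replicate 1, both called. Tyrp1 over lens was 3.00 without P10 replicate 1 and 2.95 without lens replicate 1, both called, and 1.3 without P10 replicate 2 or without lens replicate 2, where the call was lost. With a pseudocount of 64 it was 1.47, against 2.13 as reported.

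Between adult cornea and lens or tendon, no difference of Pmel or Tyrp1 was called. Pmel differed from lens by -0.25 (95% interval -1.22 to 0.73) and from tendon by 0.30 (-0.67 to 1.27), and Tyrp1 by -0.69 (-1.94 to 0.55) and 0.78 (-0.46 to 2.02) on the log2 scale. These intervals leave room for differences of 2-fold (limma adjusted p = 0.315 to 0.663). Dct rose 1.71-fold in adult cornea over lens (limma adjusted p = 0.0387), where 27.2% were called higher. That call was lost when any array other than a P10 cornea was left out (limma adjusted p = 0.0598 to 0.212). Dct differed from tendon by -0.33 (95% interval -0.95 to 0.28, limma adjusted p = 0.389). Against tendon 0 of the 3 tested probe sets were called by limma, 0 at an unadjusted p under 0.05 and 0 by the criteria of the series' design text, while 35% of all tested probe sets were called.

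Lens and tendon differed in Dct, which fell by 1.11 in lens (2.16-fold, limma adjusted p = 0.0120; 26.4% of tested probe sets were called lower). The call was lost without either tendon array (limma adjusted p = 0.0686 and 0.0583) or lens replicate 2 (0.0778). Tyrp1 was 1.47 higher in lens on the log2 scale without a call (limma adjusted p = 0.0702). It passed without lens replicate 2, whose value was the lower (limma adjusted p = 0.0221), without either P10 cornea (0.0366 and 0.0377) and with a pseudocount of 1 (0.0276). Pmel differed by 0.55 (95% interval -0.52 to 1.61, limma adjusted p = 0.372). It passed in a fit of only these groups (limma adjusted p = 0.0373).

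**Figure D2:**
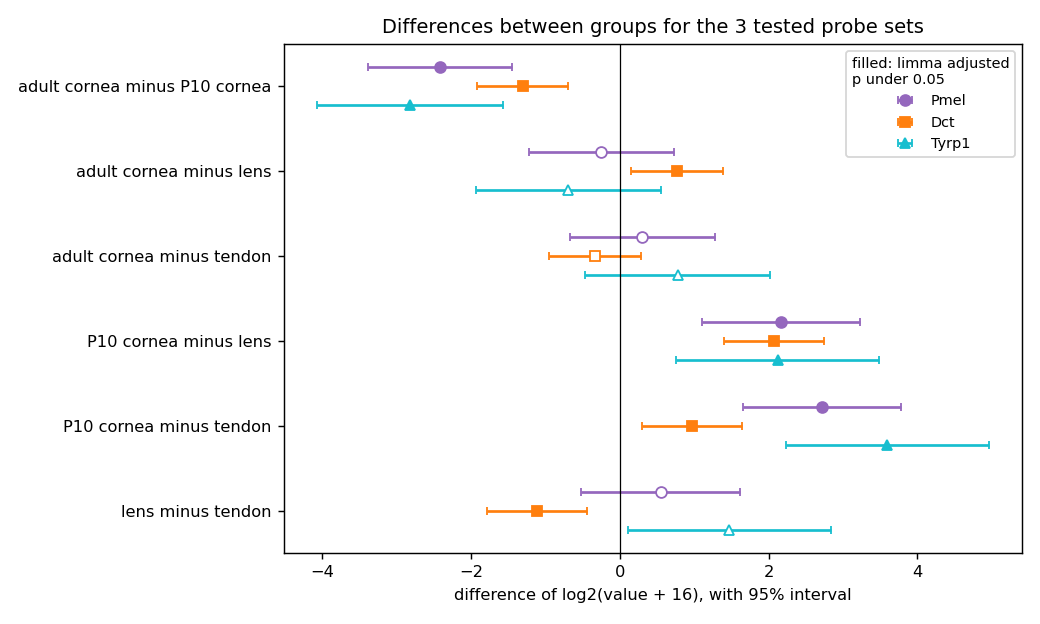
Differences of log2(value + 16) between groups (horizontal) for Pmel, Dct and the tested Tyrp1 probe set, with 95% intervals from the limma fit of all 9 arrays. Filled symbols have an adjusted p under 0.05. Adult minus P10 cornea lies below 0 for all 3, and P10 cornea minus lens or tendon lies above 0.

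The difference between the P10 preparations was itself large for these genes. On the log2(value + 16) scale, replicate 2 read 3.73-fold above replicate 1 for Pmel, 3.36-fold for the tested Tyrp1 probe set and 2.02-fold for Dct. Of 8154 tested probe sets, 51 (0.625%) were at least 2-fold higher on replicate 2, and the median difference of all was -0.05. Only 9 had a larger difference than Pmel and 11 than Tyrp1, and Dct lay just past the 2-fold line. Below the filter, 97955_at read 3.10-fold, 97956_g_at 2.27-fold and Tyr 1.71-fold higher on replicate 2, and 161538_r_at did not follow. Of the 51 probe sets 7 were called lower in adult than in P10 cornea, where 3.88% of all tested probe sets were. Of these 7, 3 were the pigment probe sets. P10 replicate 2 enters both the choice of the 51 and the call, so this overlap is partly built in. Each replicate difference is between single arrays and has no test.

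**Figure D3:**
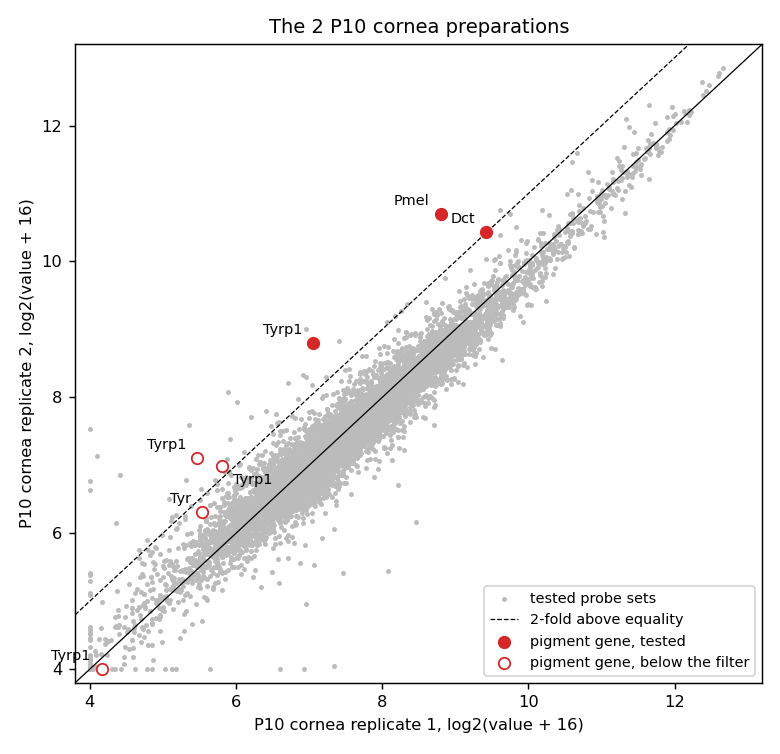
Log2(value + 16) of the 8154 tested probe sets on P10 cornea replicate 1 (horizontal) and replicate 2 (vertical). Filled red points are the tested pigment probe sets and open red points those below the filter. Pmel, Dct and Tyrp1 lie above the dashed 2-fold line, while most grey points lie close to equality.

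Replicates of the other groups did not part in this way for Pmel and Dct. Their largest difference among adult corneas was 0.46 for Pmel and 0.27 for Dct on the log2 scale. Tyrp1 97954_at varied more, by 0.85 between adult corneas 2 and 1 and by -1.65 between lens replicates 2 and 1. Over the 5 cornea arrays log2 values of Pmel correlated with Dct at r = 1.00 and with Tyrp1 at r = 0.981, as a description in which both P10 arrays set the range. Over all 9 arrays these were 0.765 and 0.928.

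None of the further pigment cell genes tested by limma was called between the ages, where 4.57% of all tested probe sets were, and the difference from Pmel, Dct and Tyrp1 was not tested. Counts of 0 among so few genes lie near that share. Of 11 further melanosome genes 5 are on the array and 3 were tested, and limma called 0 between adult and P10 cornea (0 at an unadjusted p under 0.05). Oca2, a melanosome transporter, read 37.0, 24.9 and 62.4 on adult corneas. On P10 corneas it read 50.9 and 98.0. The groups overlapped, and the difference of -0.66 was not called (limma adjusted p = 0.387). Trpm1, a cation channel of melanocytes and of retinal bipolar cells, read 170 to 193 on adult corneas and 175 and 247 on P10 corneas, against 438 and 478 on lens. Mlph, which links melanosomes to their motor, read 218 to 407 on adult corneas and 269 and 293 on P10 corneas. Gpr143 and Myo5a stayed below the filter. The median difference of the 3 tested genes between the ages was -0.20, against -0.13 over all tested probe sets. Between P10 replicates 2 and 1 their median difference was 0.47, with all 3 above 0.

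Of 11 regulators and receptors of the pigment lineage 10 are on the array and 8 were tested, and limma called 0 between the ages (1 at an unadjusted p under 0.05, median difference -0.20). Mitf, the master regulator of the lineage, read 50.0 to 137 on adult corneas and 83.3 and 99.1 on P10 corneas. Lens was higher than both, at 407 and 389. Lens also read high for Mc1r, the melanocortin receptor, at 889 and 1267, against 128 to 208 on adult corneas and 315 and 333 on P10 corneas. Mc1r differed by -0.93 between adult and P10 cornea without a call (limma adjusted p = 0.0725). Sox10, a neural crest factor, read 79.5 to 185 on adult corneas and 185 and 123 on P10 corneas, and 405 and 315 on tendon. Kit, the receptor that melanoblasts and mast cells need, read 208 to 360 on adult corneas and 330 and 337 on P10 corneas, against 14.9 and 15.9 on lens and 8.97 and 17.9 on tendon. The P10 corneas were thus nearly level for Kit.

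Ednrb, the endothelin receptor of migrating melanoblasts, read 18.0, 8.77 and 22.7 on adult corneas. It read 86.1 and 115 on P10 corneas. On lens it read 19.9 and 24.1, and on tendon 38.5 and 33.7. Both P10 values were above every other array, but the probe set reached the median of its array on too few arrays to be tested. Of 15 genes of melanosome trafficking, most of them active in many cell types, 8 were tested and limma called 0 between the ages (0 at an unadjusted p under 0.05, median difference -0.06).

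Markers of tissues next to the cornea were set beside these values. The 3 tested pigment genes summed to 484 to 630 on adult corneas and to 1216 and 3446 on the P10 corneas, against 382 to 500 on lens and 598 to 604 on tendon. Smooth muscle, which the iris and blood vessels contain, moved with them in part. Of its 7 genes 3 fell and 1 rose in adult against P10 cornea (5 differed at an unadjusted p under 0.05). Of all tested probe sets 3.88% were called lower and 0.699% higher. The median difference of the list was -0.94, against -0.13 over all tested probe sets. The share of all tested probe sets at an unadjusted p under 0.05 was not counted for any list. Acta2, smooth muscle actin, read 8.60, 33.9 and 27.7 on adult corneas and 195 and 372 on P10 corneas, and fell 7.59-fold (limma adjusted p = 0.00181). Lens, at 666 and 448, and tendon, at 391 and 301, were not low for Acta2. Myh11, smooth muscle myosin, read 11.9, 20.2 and 33.3 on adult corneas and 69.0 and 206 on P10 corneas, and fell 3.74-fold (limma adjusted p = 0.0209). Tagln fell 2.17-fold (limma adjusted p = 0.0122), while Cnn1, another smooth muscle gene, rose 2.40-fold (limma adjusted p = 0.0383). Des, the muscle intermediate filament, read 5.89 to 30.3 on adult and 9.14 and 20.1 on P10 corneas, against 2192 and 2418 on tendon. The list summed to 1481 to 3509 on adult corneas and 3355 and 4557 on P10 corneas, and to 6344 and 6710 on tendon. Actg2, another gene of the list, was the largest part of the sum on every cornea. It read 729 to 2391 on adult corneas and 2526 and 3262 on P10 corneas. All 7 genes read higher on P10 replicate 2 than on replicate 1, with a median difference of 0.45 on the log2 scale. Its part in the pigment values was not tested.

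Of 6 tested genes of limbal and conjunctival epithelium 2 fell in the adult against P10 cornea (4 at an unadjusted p under 0.05). Of all tested probe sets 3.88% were called lower. The median difference of the list was -1.21, against -0.13 over all tested probe sets. The list summed to 2518 to 4432 on adult corneas, and to 7822 and 8193 on the P10 corneas. On lens the sum was 603 to 632 and on tendon 170 to 338. The sum was thus nearly level between the P10 preparations. Krt19 read 320 to 829 on adult corneas and 1848 and 2329 on P10 corneas (limma adjusted p = 0.0117), and Krt4 read 175 to 513 on adult corneas and 941 and 1259 on P10 corneas (limma adjusted p = 0.0204). Krt15, a limbal basal cell keratin, read 612 to 1139 on adult corneas and 2345 and 2146 on P10 corneas, without a call (limma adjusted p = 0.0785). Muc5ac, a mucin of conjunctival goblet cells, read 31.0 to 71.6 on adult corneas and 23.5 and 58.1 on P10 corneas (limma adjusted p = 0.764). By the brightest probe set of each gene, 0 of the 6 were 2-fold higher on P10 replicate 2, with a median difference of 0.17 on the log2 scale between replicates 2 and 1. A second Krt4 probe set was 2-fold higher there, at 251 and 534 on the P10 corneas. The part of these cells in the pigment values was not tested.

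The lists of pigmented epithelium, photoreceptors and lens all read higher on P10 replicate 2 than on replicate 1. The median difference between these replicates was 0.33 for the 5 pigmented epithelium genes, 0.63 for the 8 photoreceptor genes and 0.58 for the 4 lens genes on the log2 scale, against -0.05 over all tested probe sets. The difference was above 0 for 5 of 5, 8 of 8 and 4 of 4 genes. This was not particular to these lists. All 7 smooth muscle, all 5 Schwann cell and all 3 tested melanosome genes were also above 0. The remaining lists ranged from 0 of 2 tendon genes to 5 of 6 vascular genes. The share of all tested probe sets above 0 was not counted. The genes of retinal pigment, iris and ciliary epithelium summed to 497 to 753 on adult corneas, and to 669 and 1136 on P10 corneas. On lens the sum was 1451 and 870 and on tendon 187 and 280, and limma called 0 of 5 genes between the ages (0 at an unadjusted p under 0.05). Ptgds, prostaglandin D synthase of ciliary and retinal pigment epithelium and other tissues, made up most of this sum and read 447 and 845 on the P10 corneas. Ttr, Rlbp1 and Rgr, more specific to retinal pigment epithelium in the eye, stayed between 25.9 and 80.9 on all corneas. These 3 genes read 75.9 to 128 on lens and 2.94 to 23.1 on tendon. Photoreceptor genes summed to 810, 1218 and 2744 on adult corneas and 1561 and 2359 on P10 corneas, and limma called 0 of 8 between the ages (0 at an unadjusted p under 0.05). Adult cornea replicate 3 had the highest photoreceptor sum of the corneas. Among adult corneas it also read highest for Pmel (183), Dct (422) and the pigment sum (630), which is mostly these genes, but not for Tyrp1 (25.1). Such steps were common on this array. From adult replicate 2 to 3, 2043 of 8154 tested probe sets rose more than Pmel and 3102 more than Dct. Lens genes summed to 2215, 3985 and 3446 on adult corneas and 2160 and 3864 on P10 corneas. Of the 4 lens genes limma called 1 higher and 1 lower in the adult (3 at an unadjusted p under 0.05). Between the ages 4.57% of all tested probe sets were called in either direction. The part of these tissues in the pigment values was not tested.

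**Figure D4:**
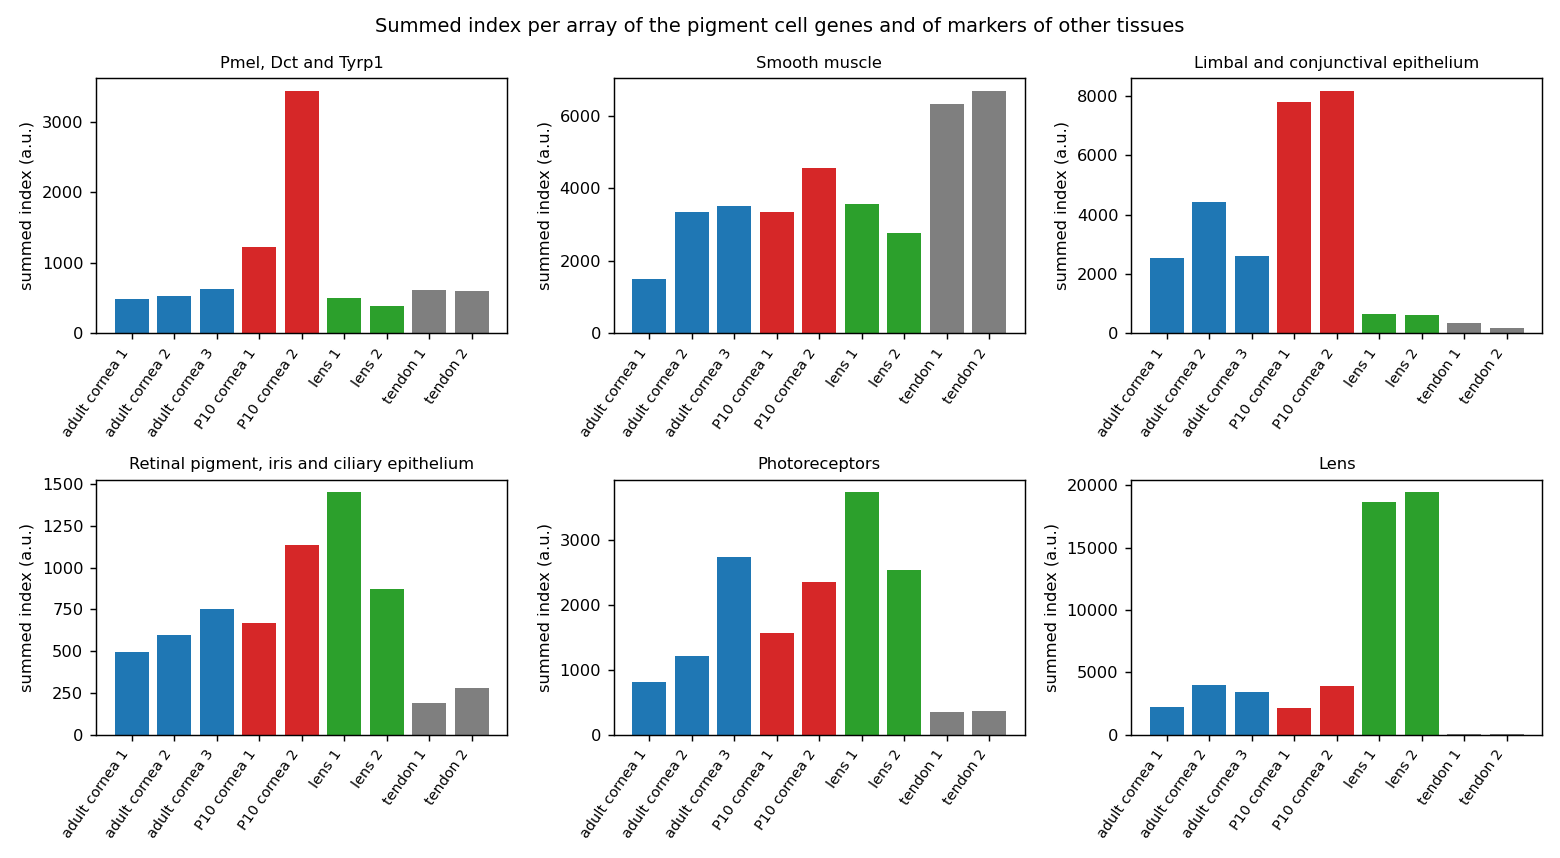
Summed expression index per array (vertical, arbitrary units, bars from 0 with a separate axis per panel) of Pmel, Dct and Tyrp1 and of 5 marker lists. Values below 0 counted as 0. The pigment sum is highest on P10 cornea replicate 2 at 3446, the limbal sum is nearly level between the P10 corneas at 7822 and 8193, and the photoreceptor sum of adult cornea replicate 3 lies above both P10 corneas.

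Vascular, Schwann and macrophage genes were set beside them likewise. Over all tested probe sets 4.57% were called between the ages, and 3.88% were called lower in the adult. Of 6 tested vascular endothelial genes 1 fell in the adult, Cdh5, the endothelial cadherin, at -6.02 to 7.37 on adult corneas and 38.2 and 54.4 on P10 corneas (limma adjusted p = 0.00368), and 4 differed at an unadjusted p under 0.05. The list summed to 729 to 955 on adult corneas and 945 and 1051 on P10 corneas. Among 5 Schwann cell genes, a lineage that shares Sox10 with melanocytes, limma called 0 (0 at an unadjusted p under 0.05), and sums were 977 to 1546 on adult corneas and 1283 and 1429 on P10 corneas. Of 5 macrophage genes 1 fell, Cd14 (1 at an unadjusted p under 0.05), and sums were 475 to 630 on adult corneas and 858 and 790 on P10 corneas, lower on P10 replicate 2 than on replicate 1. Their part in the pigment values was not tested. Over the 13 lists, with each gene read by its brightest probe set, those at least 2-fold higher on P10 replicate 2 were Myh11 in smooth muscle and Rcvrn in photoreceptors. Second probe sets of Krt4 and of Ptgds (274 and 570 on the P10 corneas) also passed 2-fold.

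**Figure D5:**
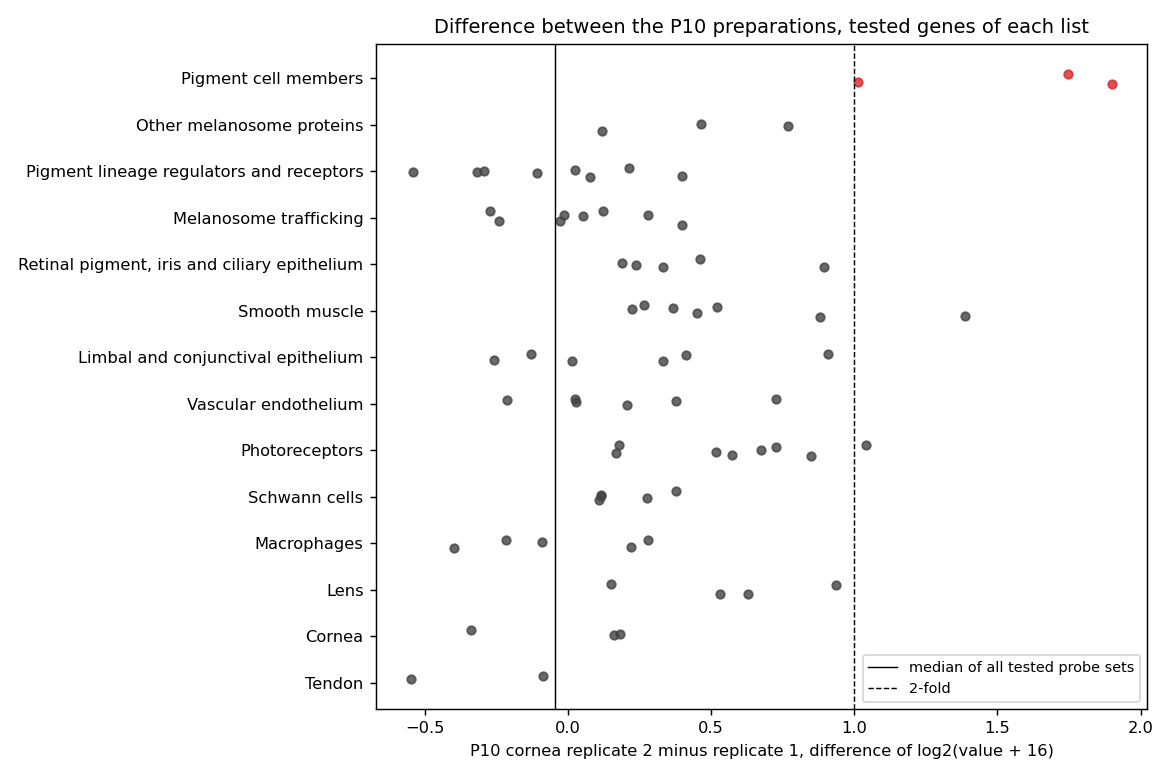
Difference of log2(value + 16) between P10 cornea replicates 2 and 1 (horizontal) for the tested genes of each list, with the pigment genes in red. The solid line is the median of all tested probe sets at -0.05 and the dashed line marks 2-fold. The 3 red points lie past the dashed line, as do Myh11 and Rcvrn, each gene being drawn by its brightest probe set.

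The genes most like the pigment genes were found by Pearson correlation with the mean centred log2 profile of Pmel, Dct and Tyrp1. Over all 9 arrays the closest of 7230 named probe sets were Usp33 (r = 0.905), Emp2 (0.887), Ago2 (0.883), Ppp1r2 (0.876), Zkscan1 (0.874) and Clk2 (0.874), whose P10 values differed from each other by less than those of Pmel. Emp2 for example read 234 and 272 on the P10 corneas. Over the 5 cornea arrays, among 1792 probe sets with a log2 range of at least 1, the closest were Slc4a5 (0.996), Vcan (0.996), Flt1 (0.994), Myl7 (0.994), Myh11 (0.993) and Lama4 (0.984). The correlations describe 9 or 5 points that share arrays and in which the P10 corneas stand out.

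Slc4a5, a sodium bicarbonate cotransporter, read 34.6, 46.4 and 42.5 on adult corneas. It read 99.2 and 235 on P10 corneas. On lens it read 278 and 94.5, and on tendon -4.93 and -8.18. It thus shared with the tested Tyrp1 probe set the step between the P10 preparations and the low values on tendon. Both also read higher on lens replicate 1 than on replicate 2. No other Tyrp1 probe set showed a lens step of this size. The others read 33.4 and 30.7, 47.5 and 60.8, and -1.64 and -1.06 on lens replicates 1 and 2. Flt1, a receptor of vascular growth factors, matched here through a dim probe set at 13.0 to 16.7 on adult corneas and 24.3 and 47.3 on P10 corneas. A brighter Flt1 probe set read 155 to 212 on adult corneas and 315 and 270 on P10 corneas and did not share the step.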

How the data were processed

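RNA was labelled with biotin and hybridised to Affymetrix arrays, 1 preparation per array, per the labels. The authors deposited 1 intensity per probe set and array, a linear index in arbitrary units. MAS5 was used per the submitters' processing notes, and the series' design text also names dChip. The sources used here leave unsaid which of them made the deposited intensity, and every array holds values below 0. No genome build is stated for the arrays.

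Groups came from the sample titles. Values at or below 0 were set to 0, 16 was added and log2 was taken, so folds of dim genes are understated. The trimmed means of the arrays lay within a ratio of 1.17, and values were not rescaled. Of 12488 probe sets, 66 controls were left out. Of the other 12422, 10833 carry 1 symbol, 396 several and 1193 none, and 10817 identifiers matched the reference gene table. Several symbols including a member occurred on 0 probe sets. Tests covered the 8154 probe sets at or above the median of an array on 2 or more of the 9 arrays. One group-means model over all 9 arrays was fitted with limma 3.58.1 in R 4.3.3, with variances following the mean, two-sided p-values adjusted by Benjamini-Hochberg within each of 6 comparisons and a threshold of 0.05. The test was checked on simulated data. The number of arrays limits the precision.

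The members and the 13 further lists, with markers of melanosomes, pigment lineage, trafficking, pigment epithelium, smooth muscle, limbus, vessels, photoreceptors, Schwann cells, macrophages, lens, cornea and tendon, were chosen with earlier results of these data known. Each further gene is its brightest probe set with 1 symbol. By rule the text names all members, up to 4 genes per list that were called between the ages or differed most between the P10 replicates, low defining markers, the 6 genes most like the members over 9 and over 5 arrays, and markers that check the tissues. Other list genes named here (Kit, Mitf, Mc1r, Ednrb and others of the pigment lists, and Actg2) were chosen after their values were seen. Same-numbered replicates did not deviate together (correlations of -0.36 to 0.20), so the numbers were not taken as pairs. Alternatives covered pseudocounts, filters, scalings, the variance model, a replicate block, fits of only the groups compared, the series' methods' test and leaving out each array.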

Additional observations from a re-analysis of the deposited data

How the results depend on the processing

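The direction of every called difference of Pmel, Dct and Tyrp1 was kept in all alternatives run. Of 336 values under alternatives 32 lost a call, 5 gained one and 0 called values reversed. The median log2 difference of all tested probe sets between adult and P10 cornea was -0.13 as deposited, 0.02 with quantile normalization and 0.06 with median centring, under which Dct lost its calls in adult against P10 cornea and in P10 cornea against tendon (limma adjusted p = 0.0581 and 0.0688). Tyrp1 lost its call between the ages with a pseudocount of 1 (limma adjusted p = 0.0537). Counts of called member probe sets were as follows. In adult against P10 cornea the count was 3, against 0 in a fit of only these groups, 0 by the series' methods' t-test, and 1 to 3 when 1 array was left out. In adult cornea against lens it was 1, against 0 with a pseudocount of 64, 2 with no filter, 0 by the methods' t-test and 0 to 1 when 1 array was left out. The 2 with no filter were Dct, higher in adult cornea, and 97955_at, lower. In adult cornea against tendon the count was 0, against 1 with no filter, which was 161538_r_at, lower in adult cornea. In P10 cornea against lens and against tendon the count was 3 in both, against 0 by the methods' t-test in both, and 7 with no filter against tendon. Of these 7, 161538_r_at was lower in P10 cornea (-0.66 on the log2 scale) and the others were higher. With the array median needed on at least 5 of 9 arrays, Tyrp1 was not tested. The count was then 2 in each of the 3 comparisons with P10 cornea. In lens against tendon the count was 1, against 2 with a pseudocount of 1, 3 with no filter, 2 in a fit of only these groups and 0 to 2 when 1 array was left out. The 3 with no filter were 97955_at, higher in lens, and Dct and 161538_r_at, lower. The cause of these moves was not tested, apart from no filter, which adds the 4 dim member probe sets.

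With the replicate number as a block, which drops adult cornea replicate 3, the count in adult cornea against lens was 0 (Dct, limma adjusted p = 0.0814), and the block changed no other count. Replicate numbers crossed between lens and tendon, an alternative chosen after seeing the data, gave 1 called member. Over all probe sets, the methods' t-test called 141 between adult and P10 cornea and 0 after Benjamini-Hochberg adjustment. With 2 or 3 arrays per group, differences of dim probe sets such as Tyr are the least certain.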
